A study of Homo sapiens with 48 samples.

Results

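NF-κB is a family of dimeric transcription factors held inactive in resting cells and released by ligands of the TNF receptor superfamily. RELA is the main activating subunit of the canonical pathway, which TNFα triggers within minutes by removal of IκB inhibitors. RELB is the activating subunit of the noncanonical pathway, which TWEAK drives over hours through processing of p100 to p52. Both subunits read closely related DNA sites, and canonical NF-κB switches on the genes of its own subunits and inhibitors.

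The regions described here are the sites at which RELA, but not RELB, was called in cells that had received no ligand. The cells were L3.6pl, an established human pancreatic ductal adenocarcinoma (PDAC) cell line. ChIP-seq was performed for RELA, RELB and H3K27ac, the acetylation mark of active promoters and enhancers, after vehicle (PBS) and after 30 min or 6 h of either TNFα or TWEAK. FOSL1, a subunit of the AP-1 transcription factor, was profiled in vehicle. The 48 samples formed 16 conditions of 3 replicates, and each condition was deposited as 1 peak list, named as merged. How many replicates entered the RELA list of 30 min of TNFα is uncertain. The design sets the response to TNFα beside that to TWEAK.

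The regions were chosen by their calls in vehicle: peaks of the RELA list on chromosomes 1 to 22 and X that shared no base with a peak of the RELB list. Of 2971 basal RELA regions, 750 met this rule (25.2%, exact 95% interval 23.7 to 26.8) and 2221 did not. Because RELA and RELB in vehicle selected these regions, their basal fold enrichment and the missing basal RELB are a description and support nothing. They were 103 to 316 bp long, and their basal RELA fold enrichment over input ran from 1.57 to 19.4 with a median of 5.38. At the edge of the rule, the closest of the 750 lay 13 bp, 14 bp and 21 bp from a RELB peak. The regions that just failed it overlapped a RELB peak by 7 bp, 25 bp and 31 bp. All intervals cover the counting of regions only, since regions are not replicates, and with 1 list per condition no difference between conditions could be tested.

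Most of the 750 regions lay in repeated DNA, and the account below keeps 3 kinds of sequence apart. A region was placed in a tandem repeat where the 1000 bp around its summit matched itself at 40% of bases or more (self-match of 0.4) after a shift of up to 400 bp. Outside tandem repeats, it was called unique where at least 90% of the 32-base words around the summit occurred once in the genome, and copied otherwise. By this measure 464 regions were in tandem repeats (61.9%, 58.3 to 65.4), 107 were copied (14.3%) and 179 were unique (23.9%, 20.9 to 27.1). The basal RELA regions that did carry basal RELB held 2072 in tandem repeats (93.3%, 92.2 to 94.3) and 69 in unique sequence (3.11%). The RELB list of vehicle itself had 290 of its 4085 regions outside tandem repeats (7.1%), against 1636 of 4038 (40.5%) after 6 h of TWEAK.

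**Figure D1:**
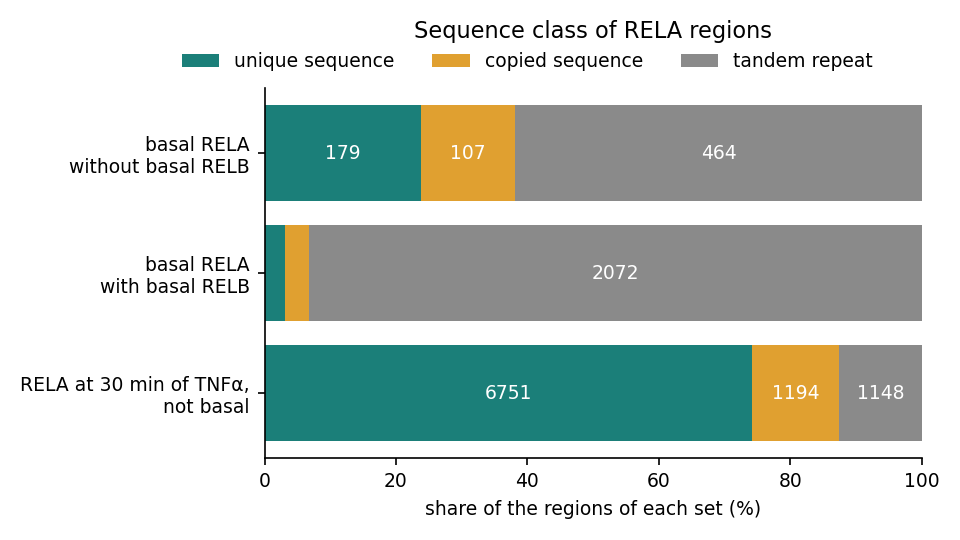
Share of regions (%, x axis) in unique sequence, copied sequence and tandem repeats, for basal RELA regions without and with basal RELB and for RELA regions of 30 min of TNFα that were not basal. Numbers in the bars count regions. Unique sequence made up 23.9%, 3.11% and 74.2% of these sets in that order.

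The sequences below are the 100 bp around the RELA summit, on the plus strand of hg38, for regions on which the results turn. Capitals mark every match to the degenerate NF-κB consensus of 10 bases, searched on both strands, or the longest run of an AG or CT dinucleotide. The first group shows promoter and gene-near sites of NF-κB pathway genes and of CREB1, which held the motif near the summit. The positions are chr4:102501261-102501360 (NFKB1), chr19:45001299-45001398 (RELB), chr2:60881499-60881598 (REL), chr14:35404765-35404864 (NFKBIA), chr4:74038745-74038844 (CXCL3), chr22:30250904-30251003 (LIF) and chr2:207529599-207529698 (CREB1).
NFKB1: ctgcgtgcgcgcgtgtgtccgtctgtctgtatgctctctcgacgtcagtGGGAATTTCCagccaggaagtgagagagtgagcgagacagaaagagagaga
RELB: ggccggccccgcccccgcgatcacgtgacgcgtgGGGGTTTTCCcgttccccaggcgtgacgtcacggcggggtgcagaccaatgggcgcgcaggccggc
REL: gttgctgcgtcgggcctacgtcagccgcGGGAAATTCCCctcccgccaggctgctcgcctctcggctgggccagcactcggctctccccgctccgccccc
NFKBIA: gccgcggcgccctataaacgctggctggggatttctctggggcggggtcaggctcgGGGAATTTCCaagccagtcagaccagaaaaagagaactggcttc
CXCL3: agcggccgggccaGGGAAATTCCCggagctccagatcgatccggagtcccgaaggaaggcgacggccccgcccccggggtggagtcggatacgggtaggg
LIF: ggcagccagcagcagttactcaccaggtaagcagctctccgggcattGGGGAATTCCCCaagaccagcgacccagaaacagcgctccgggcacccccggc
CREB1: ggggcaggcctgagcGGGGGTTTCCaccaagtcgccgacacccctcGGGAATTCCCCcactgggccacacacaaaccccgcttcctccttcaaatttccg
The second group shows sites near C3 (chr19:6720693-6720792) and CP (chr3:149225320-149225419), at which RELA was strong, RELB was called in no list and the consensus had no match.
C3: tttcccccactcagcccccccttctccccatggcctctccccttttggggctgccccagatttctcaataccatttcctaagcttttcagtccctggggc
CP: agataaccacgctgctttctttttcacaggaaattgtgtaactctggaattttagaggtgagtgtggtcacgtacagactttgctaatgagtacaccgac
The last group shows what stood highest by fold enrichment outside tandem repeats, dinucleotide runs near NRXN3 (chr14:78082954-78083053) and BARHL2 (chr1:90392769-90392868), and a tandem repeat region at the edge of the rule (chr13:17304582-17304681).
NRXN3: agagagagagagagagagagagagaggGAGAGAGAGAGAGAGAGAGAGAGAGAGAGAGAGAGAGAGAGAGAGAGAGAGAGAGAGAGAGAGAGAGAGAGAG
BARHL2: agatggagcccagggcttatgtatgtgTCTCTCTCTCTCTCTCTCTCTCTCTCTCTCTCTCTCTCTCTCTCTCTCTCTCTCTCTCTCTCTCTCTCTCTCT
chromosome 13 repeat: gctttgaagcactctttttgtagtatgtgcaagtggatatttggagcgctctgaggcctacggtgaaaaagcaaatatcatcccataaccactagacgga

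Of the 179 regions in unique sequence, most held an NF-κB motif close to the summit, an H3K27ac peak and a FOSL1 peak. The NF-κB consensus lay within 100 bp of the summit in 134 of them (74.9%, 67.8 to 81.0). It lay there in 77.4% of all 248 basal RELA regions in unique sequence, in 44.3% of the 6751 unique RELA regions of 30 min of TNFα that were not basal (called TNFα-induced below), and in 2.19% of 47957 FOSL1 regions that overlapped no RELA or RELB peak of any list and lay outside tandem repeats. Windows of 200 bp placed every 100 kb along the genome held it in 1.59% of cases, and the central 200 bp of RefSeq promoters (GRCh38.p14) in 4.21%. The match closest to the summit was at a median distance of 15.5 bp, and in 83 of the 134 regions it was within 20 bp. Counting both strands, on which a palindromic site can match on each, 39 regions had at least 2 matches and 5 had at least 3.

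The letters of the matches varied: 27 forms of the consensus occurred. The most frequent were ggggaattcc, in 23 regions, gggaaattcc, in 20, and gggaatttcc, in 18. These counts share regions: the REL and CXCL3 sites printed above match gggaaattcc on the plus strand and gggaatttcc on the minus strand. In the 69 unique regions with basal RELB, gggactttcc and ggggaattcc came first with 13 regions each, and gggaaattcc was found in 2. The AP-1 motif TGACTCA, read on both strands, was found in 53 of the 179 regions (29.6%, 23.0 to 36.9), against 30.2% of all basal RELA regions in unique sequence and 43.2% of the FOSL1 regions without NF-κB. A FOSL1 peak overlapped 148 regions (82.7%, 76.3 to 87.9), near the 85.1% of the whole basal RELA list in unique sequence and above the 48.5% (47.3 to 49.7) of the TNFα-induced regions. The 45 regions without the NF-κB consensus overlapped FOSL1 in 43 cases (95.6%, 84.9 to 99.5), and the 134 regions with it in 105 (78.4%, 70.4 to 85.0).

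**Figure D2:**
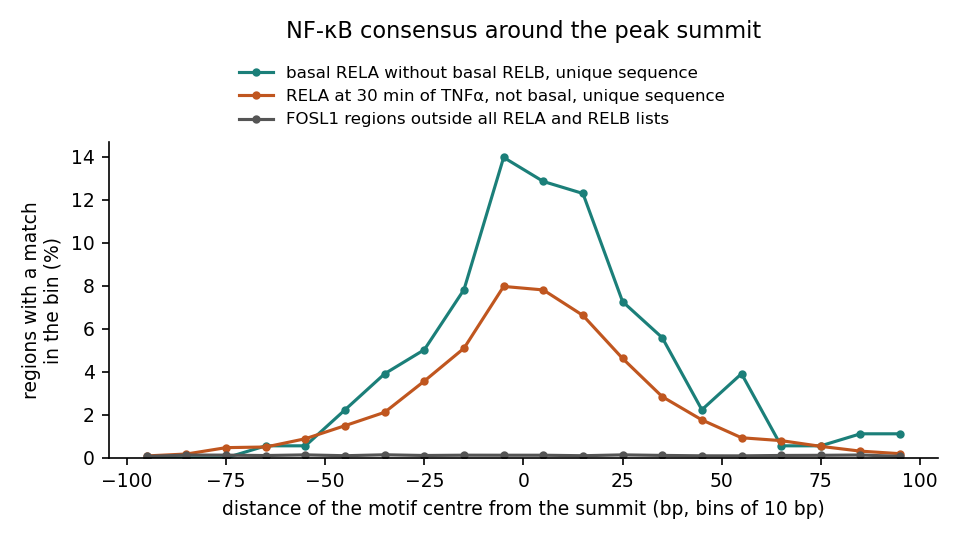
Share of regions (%, y axis) with an NF-κB consensus match in each bin of 10 bp around the peak summit (bp, x axis), for unique basal RELA regions without basal RELB, unique RELA regions of 30 min of TNFα that were not basal, and FOSL1 regions outside all RELA and RELB lists. The 2 RELA curves peak at the summit and the FOSL1 curve stays flat near 0.

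Promoters, defined as summits within 1000 bp of a protein-coding start in GENCODE 44, held 49 of the unique regions (27.4%, 21.0 to 34.5). A further 55 were intronic (30.7%), 53 intergenic (29.6%), 19 within lncRNA genes (10.6%) and 3 exonic. The unique regions with basal RELB divided in much the same way, with 17 of 69 at promoters (24.6%, 15.1 to 36.5), and so did the TNFα-induced regions (24.2%). The consensus was present in 45 of the 49 promoter regions.

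RELA was called again at nearly every unique region after TNFα. The RELA list of 30 min of TNFα held 177 of 179 (98.9%, 96.0 to 99.9), against 99.2% of all basal RELA regions in unique sequence, and that of 6 h held 176 (98.3%, against 98.8%). After TWEAK the numbers were 137 at 30 min (76.5%, 69.6 to 82.5, against 81%) and 99 at 6 h (55.3%, 47.7 to 62.7, against 60.9%). The peak names of the RELA list of 30 min of TNFα carry the mark of 1 replicate, and the lists differ in length, from 2777 RELA regions at 30 min of TWEAK to 11249 at 30 min of TNFα.

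These sites stood high within both TNFα lists and near the middle of the list of 6 h of TWEAK. At 30 min of TNFα their fold enrichment had a median of 15.9 (lowest 4.76, highest 26.7, n = 177), which is the 96.5th percentile of all RELA peaks of that list. The median percentile was 95.6 at the later TNFα time, and 85.8 and 55.5 at the early and late TWEAK times, each over the regions called and within lists of different lengths. The basal regions with RELB stood alike at 30 min of TNFα (median percentile 96.1, n = 69), whereas the TNFα-induced regions had a median of 54.6.

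RELB, absent from all 179 regions in vehicle by the rule, was called at shares that differed by ligand and time. After 6 h of TWEAK it was called at 152 (84.9%, 78.8 to 89.8), against 89.1% of all basal RELA regions in unique sequence and 13.0% (12.2 to 13.8) of the TNFα-induced ones. After 6 h of TNFα it was called at 57 (31.8%, 25.1 to 39.2), against 44.4%. At 30 min RELB was called at 3 regions after TNFα (1.68%, against 4.44%) and at 1 after TWEAK (0.559%, against 0.806%). Of the 69 unique regions with basal RELB, these lists held only 8 (11.6%) and 1 (1.45%). They had 150 and 127 regions outside tandem repeats, against 290 in vehicle and 1636 at 6 h of TWEAK. The lists of 30 min thus also missed sites that had RELB in vehicle, and no timing is read from them. Of the 57 regions with RELB at 6 h of TNFα, 55 also had it at 6 h of TWEAK.

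The 179 regions were called less often than the 69 unique regions with basal RELB in several lists. These were RELB at 6 h of either ligand and at 30 min of TNFα, and RELA after TWEAK. The 69 were all called at 6 h of TWEAK (exact interval 94.8 to 100), and 53 were called at 6 h of TNFα (76.8%, 65.1 to 86.1). The intervals did not overlap at either. At 30 min of TNFα, RELB was called at 8 of the 69 (11.6%, 5.14 to 21.6) and 3 of the 179 (0.347 to 4.82), again without overlap. RELA was called at 64 of the 69 at 30 min of TWEAK (92.8%, 83.9 to 97.6) and at 52 at 6 h of TWEAK (75.4%, 63.5 to 84.9), and these intervals did not overlap those of the 179 either. Their RELB peaks at 6 h of TWEAK stood at a median fold enrichment of 14.8, against 9.6 in the 152 regions without basal RELB. The basal RELB call itself split these sets, and the basal and later RELB lists share their antibody, cell line and input. Regions with basal RELB also had a higher basal RELA fold enrichment (median 7.11 against 6.28) and were longer (median 169 against 140 bp). Intervals that do not overlap are therefore only a description, and no difference was tested.

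The commonest combination, in 46 regions (25.7%), was RELA in all 4 treated lists and RELB at 6 h of TWEAK alone. A further 26 regions had RELB at 6 h of both ligands beside the 4 RELA calls, and 26 lacked RELA at 6 h of TWEAK but had RELB there. RELB at 6 h of TWEAK without a RELA call at that time occurred in 64 of the 80 regions that lacked that RELA call (80.0%), and RELB was called in 88 of the 99 that had it (88.9%, 81.0 to 94.3). A single region, near CYRIA on chromosome 2, was called in no RELA or RELB list after treatment, and it was named after its values were seen.

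**Figure D3:**
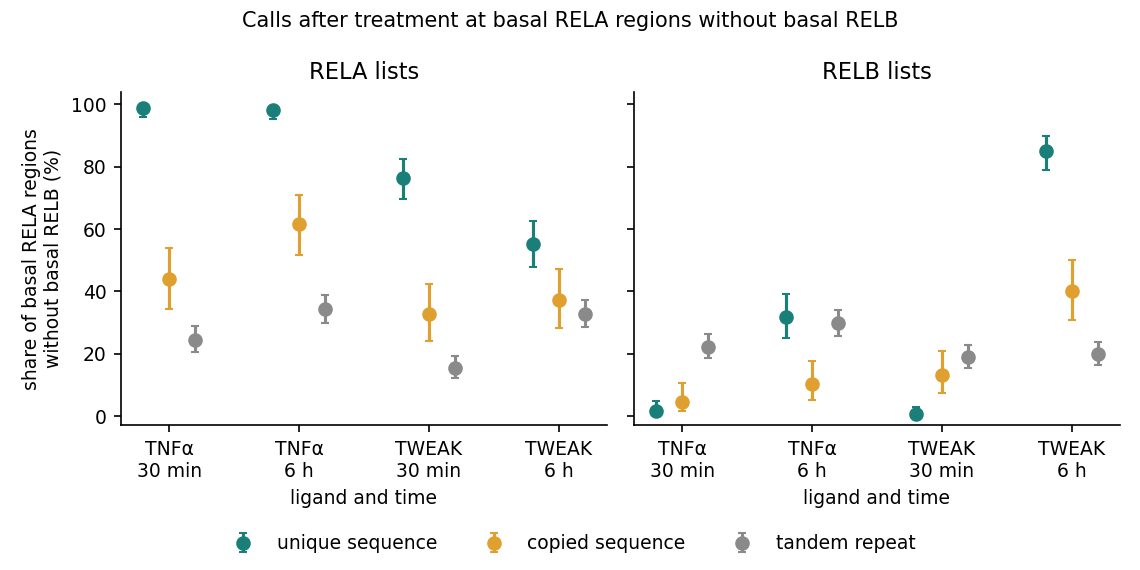
Share of basal RELA regions without basal RELB (%, y axis) called in the RELA lists (left) and RELB lists (right) of each ligand and time (x axis), by sequence class. Points are shares and bars exact 95% intervals over regions. Regions in unique sequence rise to 84.9% for RELB at 6 h of TWEAK and lie below 2% at 30 min of either ligand, while tandem repeats stay between 15.5% and 34.3% in all 8 lists.

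The 27 unique regions at which RELB was not called after 6 h of TWEAK held the NF-κB consensus less often than the 152 at which it was. The consensus was present in 12 of the 27 (44.4%, 25.5 to 64.7) and in 122 of the 152 (80.3%, 73.0 to 86.3). FOSL1 overlapped 26 of the 27 (96.3%, 81.0 to 99.9) and 122 of the 152 (80.3%, 73.0 to 86.3). The AP-1 motif went the other way, in 4 of the 27 (14.8%, 4.19 to 33.7) and 49 of the 152 (32.2%, 24.9 to 40.3). For FOSL1 and for the AP-1 motif the intervals overlapped. Basal RELA fold enrichment was similar, with medians of 5.91 and 6.32, and H3K27ac in vehicle was called in 25 and 136 of them. The 2 strongest of the 27 were the promoter of C3, the central component of complement, and a site 3541 bp upstream of CP, which encodes the copper carrier ceruloplasmin.

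At C3 (chr19:6720631-6720843) the RELA fold enrichment was 12.9 in vehicle, 22.3 and 23.6 at 30 min and 6 h of TNFα, and 16.5 and 10.3 at 30 min and 6 h of TWEAK. At CP (chr3:149225218-149225468) it was 12.3 in vehicle, 20.8 and 19.9 after TNFα, and 16.3 and 10.6 after TWEAK. Both stood among the 10 highest regions outside tandem repeats by basal fold enrichment, both overlapped FOSL1 and H3K27ac, and RELB was called at neither in any list. The absence of a match says only that the letters of the consensus are not in this window.

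H3K27ac, scored as a peak within 500 bp of the summit, marked 161 of the 179 unique regions in vehicle (89.9%, 84.6 to 93.9), against 91.9% of all basal RELA regions in unique sequence and 64.4% of the TNFα-induced ones. After TNFα the number was 167 at 30 min (93.3%, against 95.2%) and 173 at 6 h (96.6%, against 96.8%). After TWEAK it was 157 at 30 min (87.7%, against 89.5%) and 165 at 6 h (92.2%, against 93.5%). After 6 h of TNFα, 13 regions had gained the mark and 1 had lost it. At 30 min of TNFα, 9 gained and 3 lost it. For TWEAK, 3 gained and 7 lost it at the early time, and 5 gained and 1 lost it at the late time. The 6751 unique TNFα-induced regions had 843 gains and 59 losses at the early TNFα time, and 583 and 58 at the late one. For TWEAK their counts were 208 and 192 early, and 186 and 159 late. The 47957 FOSL1 regions without NF-κB had 817 gains and 6300 losses early after TNFα, and 1841 and 2011 late. For TWEAK these were 841 and 5446, then 1027 and 3173. Only regions unmarked in vehicle could gain the mark, and the sets differed in this. In vehicle it was called at 161 of the 179, 4348 of the 6751 and 33240 of the 47957. Whether the 179 regions differed from these sets was not tested. The interval of the 179 regions at each ligand and time overlapped that of vehicle, but the same regions were scored in every list. Such overlap does not show that the mark was unchanged, and no change was tested. Among the 18 regions without H3K27ac in vehicle, 16 held the NF-κB consensus and 7 overlapped FOSL1, and RELB was called at 16 of them after 6 h of TWEAK.

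**Figure D4:**
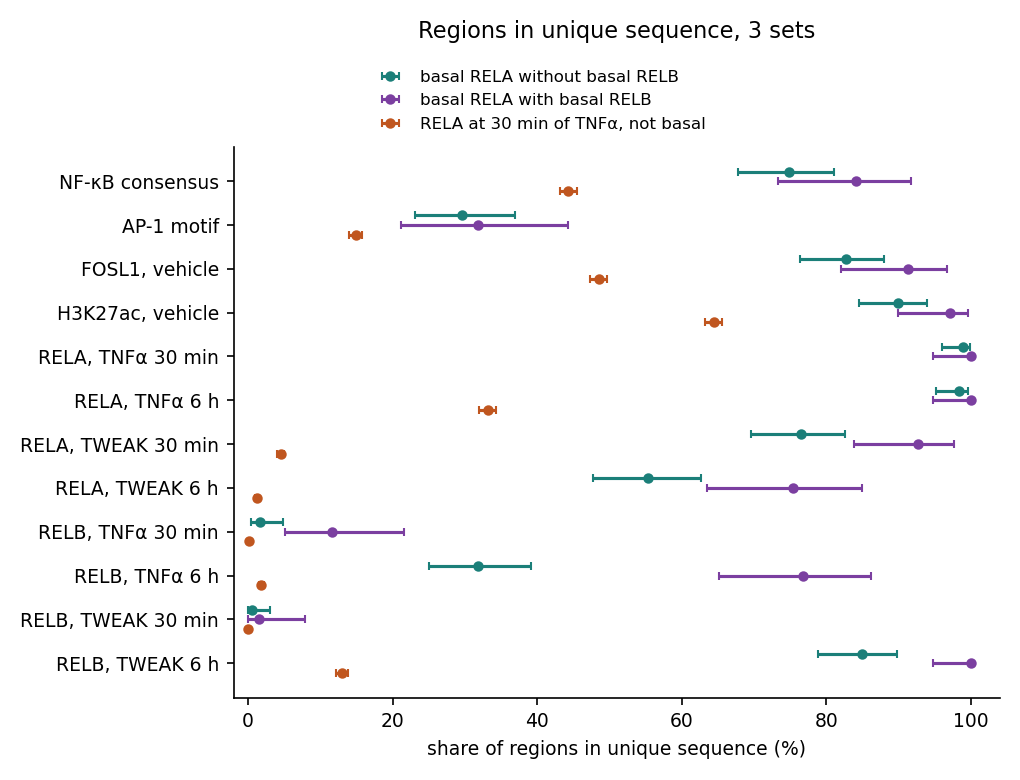
Share of regions in unique sequence (%, x axis) with each motif or call (y axis), for basal RELA regions without basal RELB, with basal RELB, and RELA regions of 30 min of TNFα that were not basal. Points are shares and bars exact 95% intervals over regions. For the basal sets the intervals overlap for motifs, FOSL1 and H3K27ac and do not overlap for RELB at 6 h of TNFα (31.8% and 76.8%), RELB at 6 h of TWEAK, or RELA at either TWEAK time, and the TNFα-induced set has no value at RELA after 30 min of TNFα because that list defines it.

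The genes with a start within 50 kb of these sites included much of the NF-κB system. Of 11 genes of NF-κB subunits and inhibitors, 9 had a region outside tandem repeats within 50 kb of a start (RELA, RELB, REL, NFKB1, NFKBIA, NFKBIB, NFKBIE, NFKBIZ and BCL3), against 479 of 19618 protein-coding genes (2.44%). For the same 11 genes, 2 had such a region with basal RELB, against 210 of all protein-coding genes, and 9 had a TNFα-induced one, against 7813. Regions without basal RELB lay near 4 of 23 genes of signal feedback and adaptors, 6 of 28 chemokines and cytokines, 0 of 16 survival and stress genes, 1 of 12 AP-1 factors, 2 of 19 adhesion and matrix genes and 1 of 13 genes of interferon response and antigen processing. The lists were drawn up with earlier results of these data known, and neighbouring genes can share a region.

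Within 10 kb of a start of these genes lay 17 regions at 16 genes, 11 of them at promoters, and all 17 held the NF-κB consensus. RELA was called at all 17 at both times of TNFα, and at 16 and 12 at the early and late times of TWEAK. RELB was called at 14 after 6 h of TWEAK, at 4 after 6 h of TNFα and at none at 30 min of either ligand. Over all 179 unique regions the shares at 6 h were 84.9% for TWEAK and 31.8% for TNFα, so the 14 of 17 lie near the share of the whole set.

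Among the subunit genes, the NFKB1 promoter (chr4:102501228-102501387, 19 bp upstream of the start, encoding p105 and p50) had a RELA fold enrichment of 8.71 in vehicle, 23.1 and 22.6 after 30 min and 6 h of TNFα, and 15.6 and 6.23 after TWEAK. RELB appeared there at 6 h of TWEAK with 12.1. The RELB promoter (chr19:45001255-45001445, 112 bp upstream) had 8.64 in vehicle, 19.4 at both times of TNFα, and 15.2 and 5.99 after TWEAK, and RELB itself occupied it at 6 h of TWEAK with 10.7. The REL promoter (chr2:60881465-60881650, 25 bp upstream) had 6.28 in vehicle, 13.2 and 13.5 after TNFα, and 9.51 and 5.85 after TWEAK, with RELB at 6.96 after 6 h of TWEAK. All 3 promoters shared 1 order of lists, with RELA highest after TNFα and RELB called at 6 h of TWEAK and in no other RELB list.

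The inhibitors did not all follow it. The promoter of NFKBIA (chr14:35404722-35404913, 66 bp upstream), which encodes IκBα, was lower in vehicle at 4.96, reached 9.77 and 8.65 after TNFα and 6.81 and 5.78 after TWEAK, and carried RELB at 6 h of both TNFα (5.43) and TWEAK (6.95). A separate basal RELB peak lay 598 bp away, the closest to any unique region. The promoter of NFKBIE (chr6:44265613-44265764), encoding IκBε, had 6.67 in vehicle, 15.1 and 14.8 after TNFα, and 11.4 and 5.44 after TWEAK, with RELB at 11.1 after 6 h of TWEAK. At the promoters of NFKBIZ (chr3:101849279-101849427), encoding the atypical inhibitor IκBζ, and of SIRT2 (chr19:38899760-38900000), the closest region to NFKBIB, which encodes IκBβ, RELA was called in all 4 treated lists and RELB in none. NFKBIZ rose from 5.81 in vehicle to 21.5 at 30 min of TNFα and stood at 6.15 at 6 h of TWEAK. BCL3, encoding an atypical IκB that binds p50 and p52 dimers, had 2 regions, 1181 bp upstream of its start and in its intron, with RELB at 6 h of TWEAK at 6.05 and 5.01.

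The adaptors, effectors and secreted factors showed the same range. The promoter of TICAM1 (chr19:4831776-4831918), which encodes the adaptor TRIF, had the highest RELA value of the 17 at 30 min of TNFα, 24.5, from 6.35 in vehicle. The chemokine gene CXCL3 (chr4:74038732-74038842) had 5.51 in vehicle, 15.9 and 9.24 after TNFα and 6.18 at 30 min of TWEAK, and neither RELA at 6 h of TWEAK nor RELB was called. The intron of TNIP1 (chr5:151083413-151083561), encoding a partner of the feedback inhibitor TNFAIP3, stood at the opposite end: RELA was 4.44 in vehicle, 5.76 and 7.04 after TNFα and 5.81 at 6 h of TWEAK, while RELB reached 11.5 at 6 h of TWEAK. The site upstream of LIF (chr22:30250875-30251044), a cytokine of the interleukin-6 family, had 7.4 in vehicle and 13.8 and 14.0 after TNFα, with RELB at 4.31 and 7.69 at 6 h of TNFα and TWEAK.

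**Figure D5:**
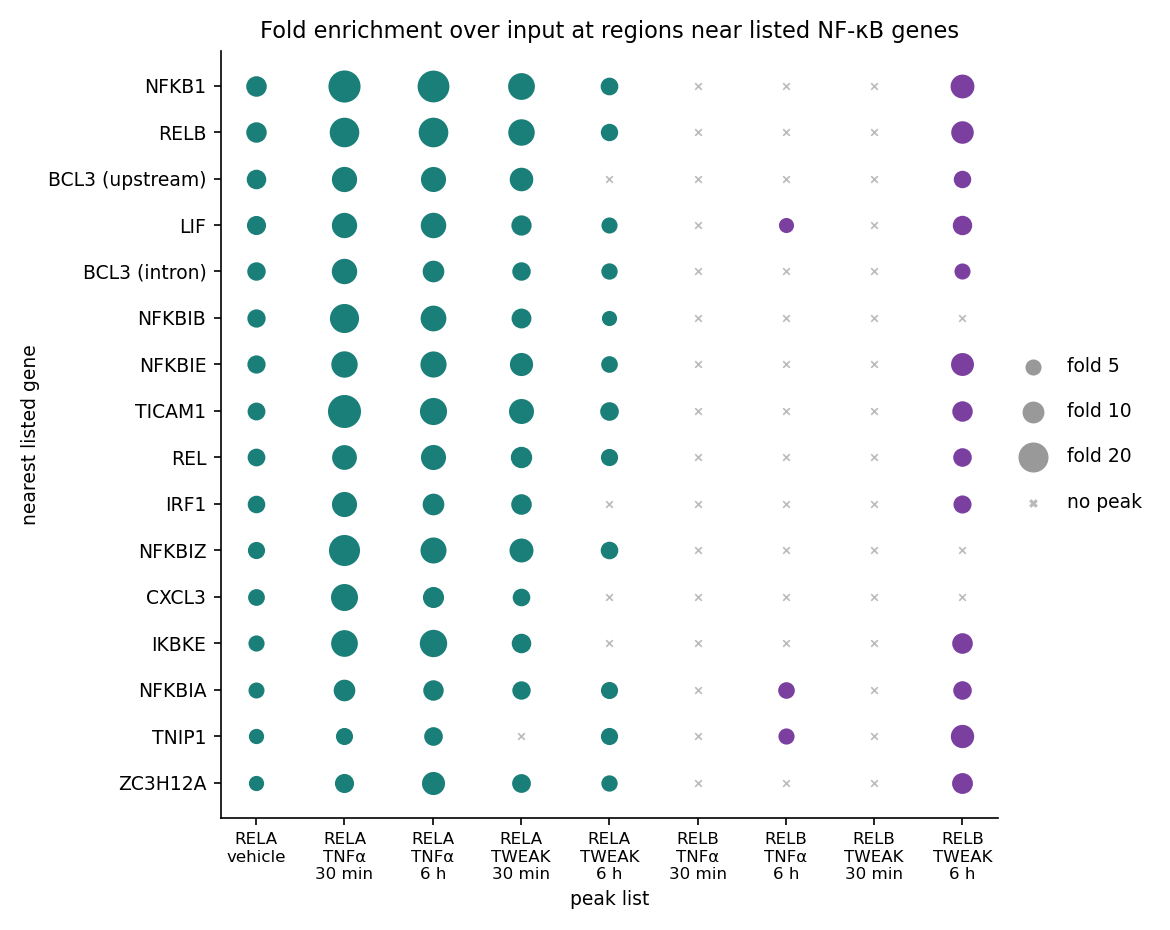
Fold enrichment over input, drawn as dot area, for RELA in vehicle and for RELA and RELB in the 8 treated lists (x axis) at 16 of the 17 basal RELA regions without basal RELB near listed genes (y axis, ordered by basal RELA fold enrichment). A cross marks a list without a peak. The largest RELA dot of each row is at 30 min or 6 h of TNFα, and RELB dots fill the column of 6 h of TWEAK at 13 of the 16 regions shown.

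The promoters with the consensus that stood highest in vehicle were those of CCNL1, OPTN, CREB1, NFKB1 and RELB. CCNL1 (chr3:157160764-157160949), encoding cyclin L1, had RELA at 11.7 in vehicle, 19.5 and 19.6 after TNFα and 19.3 and 9.12 after TWEAK, the highest RELA value at 30 min of TWEAK among the 179. CREB1 (chr2:207529553-207529794), encoding the cAMP-responsive transcription factor, had 8.89 in vehicle and 23.0 at 30 min of TNFα, with RELB at 6.86 and 11.4 at 6 h of TNFα and TWEAK, and 3 matches, counted over both strands, stood in the 100 bp printed above. OPTN (chr10:13099997-13100154), encoding the autophagy receptor optineurin, had 9.34 in vehicle and 20.7 at 30 min of TNFα.

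By RELB fold enrichment at 6 h of TWEAK, the leading regions lay in the intron of CRTAC1 (20.3), upstream of KLF11 (19.0), in the intron of RNF165 (17.6), at the promoter of ALG6 (17.5) and in a lncRNA gene nearest to SUSD1 (17.3). All 5 held the consensus and had RELB at 6 h of TNFα too, at 8.02, 6.92, 6.90, 7.13 and 4.84 in the same order. FOSL1 overlapped 2 of the 5, and H3K27ac marked all 5 in vehicle. Of all 152 unique regions with RELB at 6 h of TWEAK, 122 held the consensus (80.3%) and 55 had RELB at 6 h of TNFα (36.2%). FOSL1 overlapped 122 of the 152 (80.3%), and H3K27ac marked 136 (89.5%). The 5 were picked by a RELB value, so nothing is read from their counts. At ALG6 (chr1:63367359-63367461), RELA was 6.29 in vehicle, 11.1 and 15.1 after TNFα and 7.12 at 30 min of TWEAK, and it was not called at 6 h of TWEAK, when RELB stood at 17.5.

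Outside tandem repeats as a whole, copied and unique sequence together gave 286 regions. The consensus was found in 167 (58.4%, 52.4 to 64.2, against 54% of all 435 basal RELA regions outside tandem repeats), FOSL1 in 195 (68.2%, against 72.9%) and H3K27ac in vehicle in 199 (69.6%, against 71.7%). RELA at 30 min of TNFα was called at 224 (78.3%, against 82.5%), RELB at 6 h of TWEAK at 195 (68.2%, 62.4 to 73.5, against 75.9%), and 58 were at promoters (20.3%, against 18.2%).

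Of the 107 copied regions, 37 held a run of an AG or CT dinucleotide within 100 bp of the summit. Runs of at least 20 bp were counted, and these were in fact 53 to 83 bp long. The limit of 20 bp was set after the data had been seen. In tandem repeats, 14 of the 464 regions held such a run too. Such runs were found in 37 of the 286 regions outside tandem repeats (12.9%, 9.27 to 17.4), in 7 of the 149 with basal RELB (4.7%, 1.91 to 9.44), in 7 of the 7945 TNFα-induced regions (0.0881%) and in 45 of the 47957 FOSL1 regions (0.0938%). They stood high by basal fold enrichment, with a median of 8.69, and made up 12 of the 25 strongest regions outside tandem repeats and 7 of the 10 strongest.

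The dinucleotide regions lacked the marks of the unique ones. None of the 37 held the NF-κB consensus, 3 had H3K27ac in vehicle and 8 overlapped FOSL1. RELA was called at 5 of them at 30 min of TNFα, at 21 at 6 h of TNFα and at 9 at 6 h of TWEAK, and RELB at 9 at 30 min of TWEAK, at 11 at 6 h of TWEAK and at 0 at 6 h of TNFα. Over all 286 regions outside tandem repeats, RELA was called at 224, 242 and 139 in the same lists, and RELB at 15, 195 and 68. The strongest, near NRXN3 (chr14:78082944-78083089), had RELA at 19.4 in vehicle, 5.77 and 15.4 at 30 min and 6 h of TNFα and 11.5 at 6 h of TWEAK, with RELB at 7.85 and 14.0 at 30 min and 6 h of TWEAK. That near BARHL2 (chr1:90392760-90392908) had RELA at 19.0 in vehicle, 8.46 and 15.8 after TNFα and 9.49 and 12.3 after TWEAK, and RELB at 30 min of TNFα (8.09) and both times of TWEAK (13.7 and 14.9). Both were named for their high RELA value in vehicle, so nothing is read from lower values in the other lists. The other regions of the 10 strongest with such a run were nearest to MEIKIN, NOS1AP, KCNJ3, AMY1C and CDK12, and the 3 without one were C3, CP and a site 27781 bp upstream of ACBD6.

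The other 70 copied regions lay between the runs and the unique sites. The consensus was present in 33 (47.1%), H3K27ac in vehicle in 35 (50%) and RELB at 6 h of TWEAK in 32 (45.7%). In 33 of them no 32-base word around the summit was unique in the genome, so reads there could have come from another copy. The nearest gene occurring most often was TPTE, with 4 regions on chromosome 21. A single region, near OR4F16 on chromosome 1, shared 93.4% of its words, here shorter than 32 bases, with the mitochondrial genome. The TPTE and OR4F16 regions were named after their values were seen.

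The 464 regions in tandem repeats had other sequence and other neighbours. A spacing close to that of alpha satellite, the repeat of human centromeres, or its dimer gave the best self-match in 383 (82.5%, 78.8 to 85.9), and the core of the CENP-B box, the centromere protein's binding site within that repeat, lay within 100 bp of the summit in 182 (39.2%, 34.8 to 43.8). The regions with basal RELB in tandem repeats had the spacing in 84.8% (83.2 to 86.3), and 42.6% of all basal RELA regions in tandem repeats held the CENP-B core. The satellite pentamer GGAAT in a pair was found in 18 and a telomere repeat pair in none. The NF-κB consensus was found in 4 (0.862%, 0.235 to 2.19) and the AP-1 motif in none (0 to 0.792), although FOSL1 was called at 256 (55.2%, 50.5 to 59.8, against 87.6% of all basal RELA regions in tandem repeats). By annotation 425 were intergenic (91.6%) and 6 were at promoters, and the median distance to a protein-coding start was 1674290 bp.

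In tandem repeats a basal RELB peak was often near. A basal RELB peak lay within 500 bp of 67 of the 464 (14.4%) and within 5000 bp of 247 (53.2%, 48.6 to 57.8), and the median gap was 4220.5 bp. In unique sequence 0 of 179 had one within 500 bp (0 to 2.04) and 3 within 5000 bp, and the median gap was 2774030 bp. Another of the 750 regions lay within 10 kb of 85 tandem repeat regions (18.3%) and of 6 unique ones.

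Calls after treatment in tandem repeats showed neither of the patterns by ligand. RELA was called at 114 at 30 min of TNFα (24.6%, against 71.7% of all basal RELA regions in tandem repeats), 159 at 6 h (34.3%, against 78.9%), 72 at 30 min of TWEAK (15.5%, against 61.6%) and 152 at 6 h (32.8%, against 75.8%). RELB was called at 103 at 30 min of TNFα (22.2%, against 71.5%), 138 at 6 h (29.7%, against 76.4%), 88 at 30 min of TWEAK (19.0%, against 65.1%) and 92 at 6 h (19.8%, against 66.6%). H3K27ac in vehicle lay near 94 (20.3%, 16.7 to 24.2, against 54.3%). After TNFα it lay near 140 at 30 min (30.2%) and 110 at 6 h (23.7%). After TWEAK it lay near 145 at 30 min (31.25%) and 88 at 6 h (19.0%). In tandem repeat regions with basal RELB the share was 61.9% in vehicle, then 72.3%, 66.6%, 73.0% and 62.7% in the same order. Of the 464, 200 (43.1%) were called in no treated RELA list and 228 (49.1%) in no treated RELB list. Of the 2072 tandem repeat regions with basal RELB, 71 (3.43%) and 81 (3.91%) were, and of the 179 unique regions without it 1 and 25. Where called after 30 min of TNFα, the tandem repeat regions stood at a median percentile of 25.4 of that list, against 96.5 in unique sequence.

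The 5 strongest regions in tandem repeats lay just above the self-match limit, at 0.401 to 0.42. Those nearest to LY6S, PLA2G7, SWAP70 and ZNF462 held dinucleotide runs of up to 79 bp. The fifth, at the promoter of NAB1 (chr2:190648797-190649046), encoding a corepressor of EGR transcription factors, held the NF-κB consensus. Its RELA fold enrichment was 12.2 in vehicle, 23.6 and 23.1 after TNFα and 15.3 and 11.7 after TWEAK, and RELB was called there in no list.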

How the data were processed

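ChIP-seq was done in L3.6pl cells with 4 antibodies, giving 48 samples in 16 groups of 3 replicates. RELA was precipitated with protein G beads and the other targets with protein A beads. Per the labels and the study's methods, the authors aligned reads to hg38 with Bowtie2 2.5.0, used SAMtools 1.18 and deepTools 3.3.2, and called peaks with MACS2 against input at a cutoff of 0.05, on merged replicates except that this is not settled for RELA at 30 min of TNFα; the MACS2 version is not given in the sources used here. The deposited peak lists give each region's fold enrichment over input, a ratio, and a −log10 q-value. The deposited −log10 p-value and score columns were not used. Depth per sample is unknown, so no floor could be set.

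Peaks were compared by overlap of at least 1 bp in Python, with a function checked against bedtools 2.31.1 on simulated regions. Self-match, 32-base word counts, dinucleotide runs and motifs on both strands were computed from hg38, and annotation came from GENCODE 44. Percentiles are the share of a list's regions with a fold enrichment no higher. Shares carry exact Clopper-Pearson 95% intervals. No p-value was computed, since each condition has 1 list. Python 3.11.15, numpy 2.4.6, pandas 2.3.3, scipy 1.17.1, pysam 0.24.0 and matplotlib 3.10.9 were used, and the functions were tested on simulated data.

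The regions, gene lists and comparisons were chosen with earlier results of these data known. Named regions are the 10 strongest by basal RELA outside tandem repeats, the 5 strongest within them, those outside tandem repeats within 10 kb of a listed gene's start, the 5 strongest promoters with the NF-κB consensus, the 5 strongest for RELB at 6 h of TWEAK, and the 3 on each side of the rule's edge. Alternatives covered the overlap, fold enrichment, self-match, word, motif, H3K27ac and promoter limits, and, chosen after seeing the data, leaving out dinucleotide runs. The values of 1 named region are not reported here.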

Additional observations from a re-analysis of the deposited data

Results flagged for a closer look

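Sequences other than chromosomes 1 to 22 and X were left out of the account above, yet they held basal RELA regions of the same kind. Of 243 RELA regions of vehicle on these sequences, 66 overlapped no RELB peak of vehicle (27.2%, exact 95% interval 21.7 to 33.2).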

How the results depend on the processing

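Of 64 alternatives, 42 stayed within the interval of the reported share and 22 did not, 12 of them higher and 10 lower; the cause was not tested. The share of basal RELA regions without RELB, 25.2%, was 22.8% when no RELB peak was allowed within 500 bp and 21.6% for RELA peaks of at least 5-fold, and with that fold limit the tandem repeat share was 48.0%. A self-match limit of 0.5 gave a tandem repeat share of 51.2%. It moved the shares outside tandem repeats to 64.5% for RELA at 30 min of TNFα, 58.2% for RELB at 6 h of TWEAK, 57.9% for H3K27ac in vehicle, 62.0% for FOSL1 and 46.2% for the NF-κB consensus. With unique sequence alone these were 98.9%, 84.9%, 89.9%, 82.7% and 74.9%, and promoters 27.4%. Without dinucleotide runs, an alternative chosen after seeing the data, they were 88.0%, 73.9%, 78.7%, 75.1% and 67.1%. H3K27ac was 54.2% where its peak had to overlap the region itself, and promoters were 27.3% with a limit of 2500 bp. No paired analysis was possible because each condition has 1 merged list, and for the same reason no replicate could be left out. Read depth is unknown, so a missing peak does not show that a factor was absent.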
